A study of Mus musculus with 6 samples.

Results

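The cardiac myosin isoforms were followed through 6 genes: the heavy chains Myh6 and Myh7, the regulatory light chains Myl2 and Myl7, and the essential light chains Myl3 and Myl4. They were chosen by name, and all 6 were found among the 27179 genes of the bulk table and among the 28085 and 28394 mouse genes of the cardiomyocyte and fibroblast single-cell tables. Immature cardiomyocytes (imCMs) of newborn C57BL/6 mice had been grown together with cardiac fibroblasts from neonatal hearts (imCM-NF) or from adult hearts (imCM-AF), and the cardiomyocytes were then recovered for RNA-Seq, with 2 bulk libraries per group. There was no bulk library of imCMs without fibroblasts, so each difference is between the fibroblast ages. Single cells came from 2 nanowell chips (ICELL8), 1 labelled cardiomyocytes and 1 labelled fibroblasts, in which transcripts were counted by unique molecular identifiers (UMIs). Per the methods of the study, neonatal cardiomyocytes were prepared from left ventricles, fibroblasts of both ages were passaged in culture, AF co-cultures received more fibroblasts for each imCM than NF co-cultures, and cells were sorted by a dye after culture. The labels do not state whether the libraries of a group came from separate cultures or animals, so p-values measure only the spread between these libraries, which may be technical.

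A myosin motor of heart muscle is made of a pair of heavy chains, each of which carries a regulatory and an essential light chain on its neck. In the mouse, Myh6 encodes the fast alpha heavy chain of the adult heart and Myh7 the slow beta chain, which predominates in the ventricle before birth and gives way to Myh6 around and after birth. Myl2 and Myl3 encode the light chains typical of the ventricle, whereas Myl7 and Myl4 encode those typical of the atrium, and the latter pair is also present in the early ventricle.

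The 6 genes lie on 4 chromosomes of GRCm38, the assembly known as mm10. Myh6 (chromosome 14, 54941921 to 54966927) and Myh7 (chromosome 14, 54970684 to 54994626) are neighbours on the minus strand. Myl2 lies on chromosome 5 (122100951 to 122113472, plus strand), Myl3 on chromosome 9 (110741861 to 110769798, plus strand), Myl4 on chromosome 11 (104550663 to 104595753, plus strand) and Myl7 also on chromosome 11 (5896637 to 5898782, minus strand). Since a ratio of 2 isoforms rests on reads that tell them apart, the coding sequences of each pair were aligned. The heavy chains were identical at 5314 of 5805 aligned bases (91.5%), with 1 run of 245 bases without a difference. The identical and the most divergent windows of 60 coding bases are shown. They mark where a short read by itself can and cannot be assigned to 1 heavy chain. Differing bases are in capitals, and positions are counted from the start codon.
Myh6 coding bases 214 to 273: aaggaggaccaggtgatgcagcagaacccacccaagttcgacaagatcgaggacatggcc
Myh7 coding bases 214 to 273: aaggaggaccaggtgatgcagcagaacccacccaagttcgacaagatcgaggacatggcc
Myh6 coding bases 3226 to 3285: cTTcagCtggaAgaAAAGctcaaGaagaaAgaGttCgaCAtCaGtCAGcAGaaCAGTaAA
Myh7 coding bases 3220 to 3279: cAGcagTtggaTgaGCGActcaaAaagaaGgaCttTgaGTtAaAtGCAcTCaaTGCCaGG

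The light chains were less alike. Myl2 and Myl7 shared 64.5% of 498 aligned coding bases with a longest identical run of 16, and Myl3 and Myl4 shared 77.0% of 579 with a longest run of 29. Their most similar windows of 60 bases are shown because even these differed at 11 and 5 positions.
Myl2 coding bases 58 to 117: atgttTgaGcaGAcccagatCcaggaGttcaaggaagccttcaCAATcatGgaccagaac
Myl7 coding bases 82 to 141: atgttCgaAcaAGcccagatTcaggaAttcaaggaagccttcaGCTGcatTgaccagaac
Myl3 coding bases 418 to 477: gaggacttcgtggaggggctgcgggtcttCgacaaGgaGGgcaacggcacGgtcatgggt
Myl4 coding bases 385 to 444: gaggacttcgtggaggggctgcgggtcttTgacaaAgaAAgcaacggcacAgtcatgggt

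Windows of 35 bases were then searched for in all other annotated transcripts. Of such windows, 30.0% in Myh6 and 29.8% in Myh7 occurred in another gene, almost all of them in the other of these 2 genes, whereas 0 windows of the 4 light chains did. A single read of that length from a shared window has no unique place by itself, and only unique reads were kept in bulk. Per the study's methods the bulk reads were paired, so a mate outside a shared window may place such a read. The search did not use pairs.

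To ask how fibroblast age bears on the myosin isoforms, bulk levels were compared first. No member passed the thresholds between imCM-AF and imCM-NF, and all 6 fitted log2 fold changes were between 0.04 and 0.35, of which those of Myl3 and Myl7 turned negative without imCM-NF 2 (-0.16 and -0.0056) or with scaling to cardiomyocyte markers (-0.14 and -0.083). The call required an adjusted p under 0.05 (edgeR quasi-likelihood test, Benjamini-Hochberg adjustment over 14041 genes) and an absolute log2 fold change over 0.58, and it was met by 0 of the 6 members against 11.1% of all tested genes (6.15% higher and 4.99% lower in imCM-AF). By adjusted p alone it was also 0 of 6, against 27.0% of all tested genes. DESeq2 and limma-voom also called 0 of 6. At an unadjusted p under 0.05 by edgeR only Myh7 passed, while the DESeq2 Wald test gave Myh6 an adjusted p of 0.072. The median log2 fold change was 0.21 over the members and 0.0011 over all tested genes.

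Myh6 was the most abundant of the 14041 tested genes by mean CPM (counts scaled to a common library size, with TMM factors). Its level was 13475 (imCM-NF 1), 9779 (imCM-NF 2), 14258 (imCM-AF 1) and 15310 CPM (imCM-AF 2), and values of other genes are given in the same order of libraries. Both imCM-AF libraries were above both imCM-NF libraries, an order that 32.1% of all tested genes also had. The log2 fold change was 0.35 ± 0.26 (SE, n = 2 libraries per group, 95% interval -0.21 to 0.90, edgeR adjusted p = 0.348). The distance between the imCM-NF libraries exceeded that between the group means. Levels in bulk RNA do not tell fewer cardiomyocytes from less RNA per cardiomyocyte, and the summed counts of 12 other cardiomyocyte markers were also lowest in imCM-NF 2, at 2.57% of its counts against 3.30% to 3.61% in the other 3 libraries. Relative to those marker counts the 6 myosins together stood at 0.617 and 0.614 in imCM-NF and at 0.667 and 0.649 in imCM-AF.

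Myh7 was far less abundant, at rank 603. Its levels of 285 and 208 CPM with NFs and 271 and 343 CPM with AFs overlapped between groups. Its log2 fold change was 0.32 ± 0.14 (SE, 95% interval 0.02 to 0.61) with an edgeR adjusted p of 0.101. Across the alternatives the adjusted p of Myh7 ran from 0.000701 to 0.837, and the fold change stayed under the threshold in each. Mhrt, an antisense transcript that overlaps Myh7, was at 69.8 and 55.0 CPM with NFs and 67.9 and 87.6 CPM with AFs. The 4 libraries thus had the same order for Mhrt as for Myh7. Whether counting used strand is not given in the sources used here, so the reads of this overlap cannot be told apart, and the same limit holds for Ccdc63, which overlaps Myl2, and Gm49130, which overlaps the end of Myh6.

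**Figure D1:**
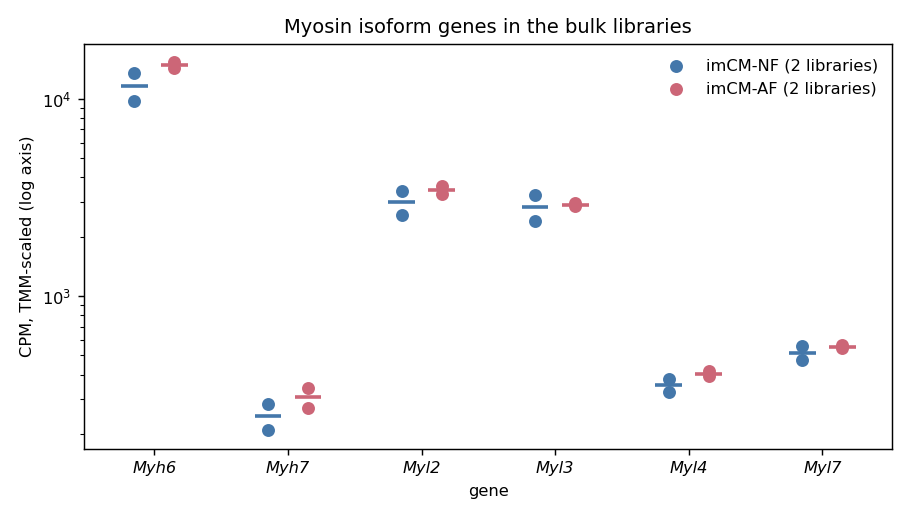
Level of each myosin isoform gene in each bulk library, as TMM-scaled CPM on a log axis; points are libraries and bars are the means of 2. Myh6 lies highest, from 9779 to 15310 CPM, and Myh7 lowest, from 208 to 343 CPM, and imCM-NF 2 is the lower imCM-NF library for all 6 genes.

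Among the regulatory light chains, the ventricular Myl2 was at 3402 and 2568 CPM with NFs and at 3295 and 3631 CPM with AFs. The atrial Myl7 was at 559 and 472 CPM with NFs and at 562 and 546 CPM with AFs. In both genes imCM-NF 1 lay among or beside the imCM-AF values and imCM-NF 2 was the lowest library. The log2 fold change was 0.21 ± 0.19 for Myl2 (edgeR adjusted p = 0.423, 95% interval -0.18 to 0.61) and 0.10 ± 0.12 for Myl7 (edgeR adjusted p = 0.558, 95% interval -0.15 to 0.36).

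Among the essential light chains, Myl3 was at 3254 and 2405 CPM with NFs and at 2848 and 2956 CPM with AFs. Both imCM-AF libraries lay between the imCM-NF libraries, and the log2 fold change was 0.04 ± 0.18 (SE, 95% interval -0.35 to 0.42, edgeR adjusted p = 0.905). Myl4 was at 378 and 326 CPM with NFs and at 416 and 392 CPM with AFs, so its groups did not overlap, as in 66.0% of all tested genes. Its log2 fold change of 0.20 ± 0.11 had an edgeR adjusted p of 0.206 and a 95% interval of -0.04 to 0.44.

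To compare genes with each other, CPM was divided by the length of the principal transcript. On this scale the order in each of the 4 libraries was Myl2, Myl3, Myh6, Myl7, Myl4 and Myh7. The imCM-AF means were 5231, 3097, 2418, 939, 460 and 50.1 CPM per kilobase in that order. With the length of all annotated exons in place of the principal transcript, Myh6 (1963 CPM per kilobase over the 4 libraries) came before Myl2 (1653) and Myl3 (1402), so the order of the 3 most abundant genes depended on the length used. Myl7, Myl4 and Myh7 kept their places.

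Isoform ratios do not depend on the scaling of a library. Per length, Myh6 exceeded Myh7 by 47.4 and 47.1 times in imCM-NF and by 52.8 and 44.8 times in imCM-AF. The imCM-AF libraries lay on either side of both imCM-NF libraries. The log2 ratio was higher by 0.04 ± 0.12 (SE) in imCM-AF, with a 2-sided exact permutation p of 1. With 2 libraries against 2 the smallest p such a test allows is 0.333, so no ratio could pass a threshold of 0.05.

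Myl2 exceeded Myl7 per length by 5.42 and 4.85 times in imCM-NF and by 5.23 and 5.93 times in imCM-AF. Myl3 exceeded Myl4 by 8.07 and 6.91 times in imCM-NF and by 6.42 and 7.08 times in imCM-AF. Both sets of values overlapped between groups. Their size depends on the length used, since per length of all annotated exons Myh6/Myh7 ran from 57.2 to 67.4, Myl2/Myl7 from 1.65 to 2.01 and Myl3/Myl4 from 15.5 to 19.5 over the 4 libraries, while the differences between groups do not. The differences on the log2 scale were 0.12 ± 0.12 for Myl2/Myl7 and -0.15 ± 0.13 for Myl3/Myl4, each with a 2-sided exact permutation p of 0.667 and an adjusted p of 1 over the 3 ratios.

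**Figure D2:**
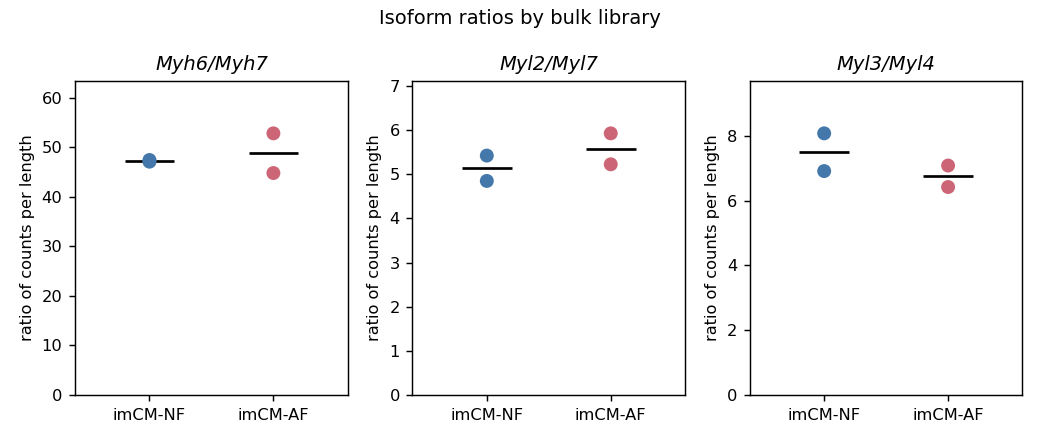
Isoform ratios per transcript length in each bulk library, with bars at the means of 2 libraries and axes from 0. Myh6/Myh7 runs from 44.8 to 52.8, Myl2/Myl7 from 4.85 to 5.93 and Myl3/Myl4 from 6.42 to 8.07, and the groups overlap in each panel.

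The genes that build and serve the thick filament were then described around the members. Of 20 listed thick filament genes 13 were tested, and all 13 had a positive log2 fold change, with a median of 0.38. A positive sign was also found in 7035 of all 14041 tested genes and in 10 of 12 cardiomyocyte markers (median 0.21). In the thick filament list 4 genes were called higher in imCM-AF against 6.15% of all tested genes. Trim54, a ubiquitin ligase of the sarcomere, rose from 29.6 and 24.1 CPM to 69.3 and 73.6 CPM, with a log2 fold change of 1.42 ± 0.11. Myh7b, a slow-type heavy chain outside the members, rose from 15.9 and 14.6 CPM to 33.6 and 40.5 CPM (1.28 ± 0.13). The other calls were Myl1, an essential light chain typical of fast skeletal muscle (0.66 ± 0.11), and Ttn, the giant elastic protein titin (0.62 ± 0.17), and their edgeR adjusted p was at most 0.0128. Abundant genes without a call included Mybpc3, cardiac myosin-binding protein C (0.14 ± 0.19), and Myom1, which crosslinks the M-band (0.30 ± 0.15).

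All counts of calls in these and the following lists stand beside 6.15% of all tested genes called higher and 4.99% called lower. Kinases and phosphatases that act on myosin light chains numbered 13 and had a median log2 fold change of 0.27. Mylk4, a myosin light chain kinase, rose from 9.59 and 7.10 CPM to 14.0 and 18.6 CPM, and Mylk2, the skeletal muscle form, fell from 3.01 and 3.72 CPM to 1.55 and 1.68 CPM. Mylk3, the cardiac light chain kinase, was not called, with 305 and 205 CPM beside 276 and 279 CPM, nor was Ppp1cb, a myosin phosphatase subunit (log2 fold change 0.36). Of 9 myosin folding genes, Smyd1, a muscle methyltransferase required for myofibril assembly, was called higher (0.59 ± 0.12) and Nacad lower (-0.60 ± 0.17), with a median of 0.23. The chaperones Hsp90ab1 (-0.15), Hspb7 (0.11) and Cryab (0.27) were not called.

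Nonmuscle and smooth muscle myosin genes had a median log2 fold change of -0.12 over 9 tested. Myl6, an essential light chain of nonmuscle and smooth muscle myosin, fell from 319 and 330 CPM to 207 and 197 CPM (-0.69 ± 0.10), and Myh14, a nonmuscle heavy chain, rose from 6.13 and 4.13 CPM to 10.7 and 8.65 CPM. The abundant Myh9 (-0.16), Myl12a (-0.12) and Myl9 (0.05) were not called. Markers of other cell types moved in the same comparison. All 10 fibroblast markers and all 8 endothelial markers had negative log2 fold changes, with 6 and 5 called lower, and the summed fibroblast markers gave 15544 and 17028 CPM in imCM-NF against 10787 and 8534 CPM in imCM-AF. Of the remaining marker lists, 1 of 7 macrophage genes (C1qa), 2 of 8 smooth muscle genes (Cnn1 and Notch3) and 1 of 6 epicardial genes (Krt19) were called lower, Abcc9 of the smooth muscle list was called higher, and of 12 cardiomyocyte genes Ttn and Pln were called higher. Their part in these changes was not tested.

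Of 23 factors known to regulate heavy chain genes, 22 were tested and 0 were called by edgeR, DESeq2 or limma-voom, with a median log2 fold change of 0.22. By edgeR 11 had an unadjusted p under 0.05. The share of all tested genes at that unadjusted p is not given here. It is no lower than the 27.0% by adjusted p, so nothing is read from the 11. Values for the most abundant were 0.19 for Tbx20, 0.23 for Gata4 and -0.10 for Smarca4, all on the log2 scale. Of other atrial genes, 11 were tested, with a median of 0.16. Among these Nppa, the atrial natriuretic peptide, fell from 7250 and 4778 CPM to 3170 and 3430 CPM, while Kcnj3 and Bmp10, both at most 10.1 CPM in every library, were called higher, and Pam (0.16), Dkk3 (0.30) and Gja5 (0.02) were not called. Of 10 other ventricular genes 3 were called higher and 0 lower, with a median of 0.41. These were Irx4, a transcription factor of the ventricle (0.67 ± 0.13), Kcnj2, an inward rectifier channel (0.69 ± 0.14), and Pln, which encodes the calcium pump regulator phospholamban (0.69 ± 0.16), whereas Gja1 (0.38), Lbh (-0.03) and Xirp2 (0.00) were not called.

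Single wells were used to ask whether the isoforms were mixed within cells or divided between them. GEO's labels assign wells to no group, so wells were described by the names that the authors gave them, with no test. Names AFNCM1 to AFNCM3 and NFNCM1 to NFNCM3 use the letters of the bulk titles for imCMs with adult or neonatal fibroblasts. The names NCM0_1 and NCM0_2 are not explained in the sources used here. After filters 1297 of 1409 sample wells of the cardiomyocytes library were kept, with a median of 18263 UMIs. Of these, 84.1% held more UMIs of 12 cardiomyocyte markers than of all other cell type markers, from 75.6% (AFNCM3) to 98.0% (NCM0_2) by name. The libraries shared 269 well barcodes. Intervals given below are exact 95% intervals for counting error only.

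In the summed wells Myl2 was the most counted member. It gave 6785 UMI CPM in NCM0 wells, 5927 in NFNCM wells and 4810 in AFNCM wells. UMI CPM are UMIs of a gene scaled to all UMIs of the wells, without TMM factors. Myh6 gave 4243, 4420 and 4192 UMI CPM, Myl3 2843, 2667 and 2582, and Myl7 1295, 1765 and 1785, in the same order of names. Myl4 (292, 263 and 211) and Myh7 (162, 148 and 136) were the least counted. The summed cardiomyocyte markers fell along the same names, from 39979 through 37694 to 31763 UMI CPM, and relative to these markers Myl2 stood at 17.0%, 15.7% and 15.1% and Myh6 at 10.6%, 11.7% and 13.2%.

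The heavy chain ratio was alike in all co-culture names. Myh6/Myh7 was 27.9, 30.8 and 30.2 in NFNCM1 to NFNCM3 and 31.5, 30.5 and 30.8 in AFNCM1 to AFNCM3, with intervals that all overlapped. Pooled, it was 29.8 (28.5 to 31.2) in NFNCM and 30.8 (29.5 to 32.2) in AFNCM. NCM0_1 and NCM0_2 gave 24.0 and 27.7, and their pooled value of 26.1 (24.5 to 27.9) lay below both co-culture intervals, although the interval of NCM0_2 (25.4 to 30.2) met those of all 6 co-culture names. In the last 500 bases of the transcripts, 42.8% of windows of 50 bases in Myh6 and 32.6% in Myh7 occur in another gene, so these ratios are not on the scale of those in bulk.

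The light chain ratios differed widely between names of the same culture. Myl2/Myl7 was 3.30, 2.80 and 4.34 in NFNCM1 to NFNCM3, 1.55, 6.50 and 2.31 in AFNCM1 to AFNCM3, and 5.83 and 4.91 in NCM0_1 and NCM0_2. AFNCM wells held both the lowest and the highest value, so no order of the cultures could be read. Myl3/Myl4 was 10.6, 8.62 and 11.8 in NFNCM1 to NFNCM3, 7.80, 28.0 and 9.76 in AFNCM1 to AFNCM3, and 10.6 and 9.21 in NCM0_1 and NCM0_2. AFNCM2 was the highest for both ratios and AFNCM1 the lowest for both. Counting intervals did not meet between any of the names for Myl2/Myl7, whereas for Myl3/Myl4 AFNCM2 alone stood apart from every other name, and the intervals do not cover which cells were caught.

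**Figure D3:**
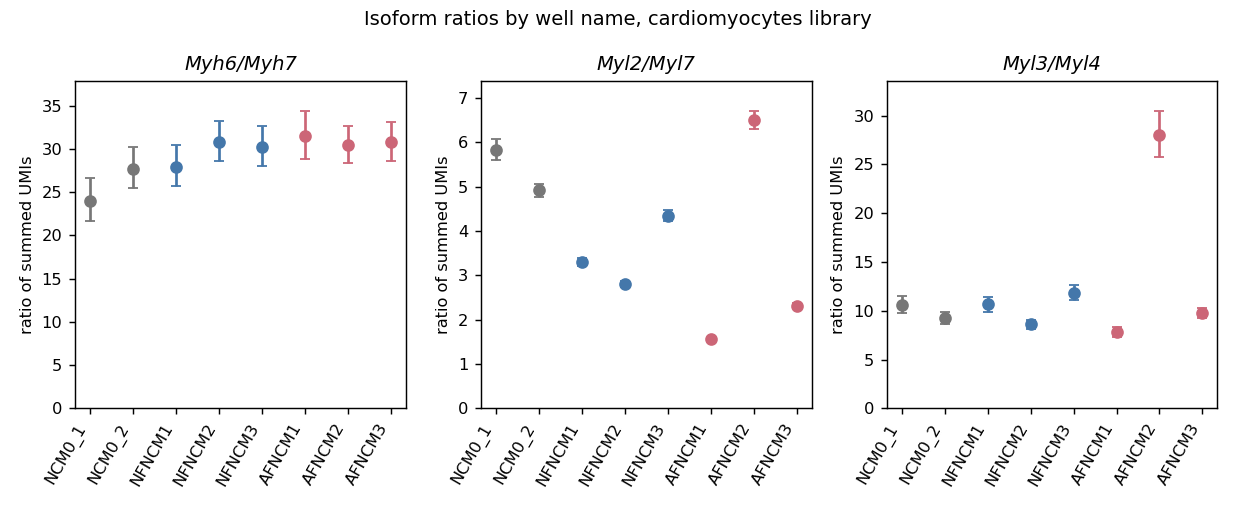
Isoform ratios of UMIs summed over the kept wells of each name in the cardiomyocytes library, with exact 95% counting intervals and axes from 0. Myh6/Myh7 stays between 24.0 and 31.5, whereas Myl2/Myl7 runs from 1.55 (AFNCM1) to 6.50 (AFNCM2) and Myl3/Myl4 from 7.80 to 28.0 in the same names.

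Atrial light chain UMIs were more concentrated in few wells than those of the other members. The 10 wells richest in Myl7 held 42.5% of its 57753 UMIs in the cardiomyocytes library, and the 10 richest in Myl4 held 32.0% of its 8348, against 5.87% for Myh6, 6.21% for Myl2, 6.86% for Myl3 and 7.04% for Myh7. A single well gave up to 3756 Myl7 UMIs. In wells with mainly cardiomyocyte markers the median Myl7 level was only 1.90 UMIs per 10000, beside 65.8 for Myl2, and the median of Myl4 was 0.

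Wells were next ordered by the share of Myl2 in Myl2 plus Myl7, in the 1036 kept wells with at least 20 UMIs of this pair. This division was chosen after the values had been seen. The median share was 97.1%, and 645 wells lay over 95%. Myl7 exceeded Myl2 in 74 wells (7.14%, 5.65% to 8.88%), of which 37 had a Myl2 share under 5%. A further 35 wells lay between 40% and 60%, of which 4 were NCM0, 7 NFNCM and 24 AFNCM wells. The 74 Myl7-majority wells held 85.0% of all Myl7 UMIs of the library but 1.30% of Myl2 UMIs.

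Myl7-majority wells were found under every name. The wells with at least 20 UMIs of the pair numbered 237 in NCM0, 396 in NFNCM and 403 in AFNCM. Myl7-majority wells made up 4.22% (2.04% to 7.62%), 6.31% (4.13% to 9.18%) and 9.68% (6.97% to 13.0%) of these, with overlapping intervals. The kept wells left out as below the minimum were 21, 127 and 113. Of the 74 wells 65 held mainly cardiomyocyte markers. By culture these were 10 of 10 in NCM0, 24 of 25 in NFNCM and 31 of 39 in AFNCM. A Myl7 level of at least 50 UMIs per 10000 was found in 46 of the 74 wells. These 46 wells, which held 83.3% of Myl7 UMIs, were 2.95%, 4.55% and 5.21% of the 237 NCM0, 396 NFNCM and 403 AFNCM wells. Leaving out the Myl7-majority wells must raise Myl2/Myl7. In the remaining wells with at least 20 UMIs of the pair, it was 14.1 in NCM0, 34.7 in NFNCM and 21.1 in AFNCM. The values by name ran from 11.9 (NCM0_2) to 43.0 (NFNCM3).

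**Figure D4:**
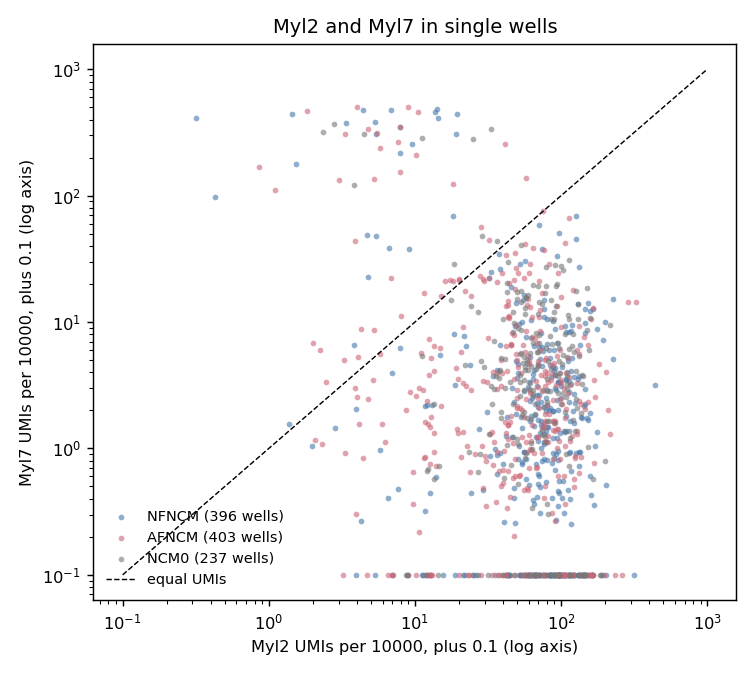
Myl2 against Myl7 in 1036 kept wells with at least 20 UMIs of the pair, as UMIs per 10000 plus 0.1 on log axes, coloured by well name; the dashed line marks equal UMIs. Most wells lie at high Myl2 and low Myl7. Wells of all 3 colours lie at high Myl7, mostly among the 74 wells above the line.

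The other members separated with this division, although they were not used for it. Myl4 gave 1989 UMI CPM (1934 to 2045) in Myl7-majority wells and 116 (112 to 120) in the other 962 wells, and Myl3 gave 592 (562 to 623) against 3176 (3155 to 3197). Myl3/Myl4 was therefore 0.297 (0.281 to 0.315) in Myl7-majority wells and 27.3 (26.4 to 28.3) in the others. The heavy chains differed far less. Myh6 gave 4375 and 4812 UMI CPM, Myh7 134 and 162, both lower in Myl7-majority wells with intervals that did not meet, and the intervals of Myh6/Myh7 overlapped, at 32.7 (29.4 to 36.6) and 29.6 (28.8 to 30.5). Tnnt2, the cardiac troponin T marker, gave 12477 and 13525 UMI CPM, and the median depths of the wells were 26370.5 and 21726.5 UMIs.

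The light chains were divided in the same way within each culture. In NCM0, NFNCM and AFNCM wells, Myl3/Myl4 was 0.346, 0.158 and 0.407 in Myl7-majority wells and 14.8, 26.3 and 45.4 in the others. The heavy chain ratio was 55.7 (35.1 to 94.4), 37.8 (30.8 to 47.0) and 28.8 (25.2 to 33.0) in Myl7-majority wells and 25.8, 29.8 and 31.4 in the others, with overlapping intervals of the 2 kinds of wells in NFNCM and AFNCM but not in NCM0. Myh6 itself was higher in Myl7-majority wells of NCM0 (4771 against 4300 UMI CPM) and lower in those of NFNCM (4810 against 5189) and AFNCM (4120 against 4724), each with intervals that did not meet. Myh7 was lower in each (85.6 against 167, 127 against 174 and 143 against 150.3), with intervals that overlapped in AFNCM. The NCM0 ratio rests on 18 Myh7 UMIs in 10 wells. Of 765 wells with at least 20 UMIs of both light chain pairs, 715 had more of both ventricular chains and 38 more of both atrial chains. A mixed pattern was seen in 12 wells. Of the 49 Myl7-majority wells among the 765, 11 had Myl3 over Myl4. The reverse, Myl2 over Myl7 with Myl4 over Myl3, was seen in 1 well. The rest of the Myl7-majority wells were below the minimum for Myl3 and Myl4.

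Other atrial genes were at higher levels in the same wells. Of 12 listed atrial genes 10 had a higher level in Myl7-majority wells, each with intervals that did not meet. Sln, the atrial calcium pump inhibitor sarcolipin, gave 8010 UMI CPM against 64.6, Nppa gave 3345 against 104, and Kcnj3, an atrial potassium channel subunit, gave 274 against 6.75. Bmp10 had 0 UMIs in the 74 wells and 1 UMI in the others, and Kcna5 had 1 and 26 UMIs. Of 10 listed ventricular genes 4 had lower levels with intervals that did not meet, including Pln (750 against 2248 UMI CPM) and Irx3, a ventricular conduction factor (21.9 against 101), and Mpped2 had a higher one (8.75 against 3.11). These levels are sums over wells of 1 library, with no replicate. No share of all genes with such intervals stands beside these counts. The lists were chosen with earlier results of these data known, so the counts are descriptions.

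**Figure D5:**
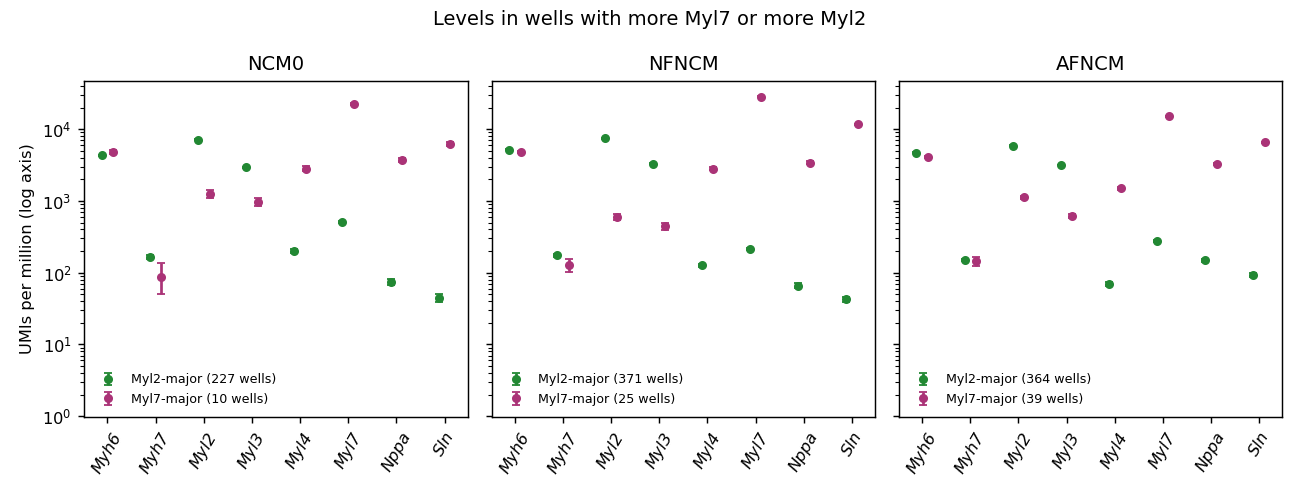
Levels of the 6 members, Nppa and Sln in wells with more Myl7 than Myl2 and in wells with more Myl2, by well name, as UMI CPM on a log axis with exact 95% Poisson intervals. The wells were divided by Myl7 and Myl2, so the directions of these genes are largely set by the division. In all 3 panels Myl4, Nppa and Sln are higher and Myl3 lower in Myl7-majority wells, while Myh6 stays between 4120 and 5189.

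The share of wells with any atrial light chain UMI was taken over all wells with mainly cardiomyocyte markers. Thinned to 5000 UMIs per well, Myl7 was found in 68.8% of such NCM0 wells (62.0% to 75.1%), 45.6% of NFNCM wells (40.3% to 51.1%) and 61.2% of AFNCM wells (55.6% to 66.5%), and without thinning in 81.0%, 65.8% and 79.1%. Myl4 was found after thinning in 48.8%, 30.5% and 26.0%. Thinning left out 43 NCM0, 101 NFNCM and 71 AFNCM wells that were shallower. The order of the Myl7 shares was not that of the summed levels, which were lowest in NCM0, so no order is drawn from either. In all NF0, NF, AF0 and AF wells of the fibroblasts library Myl7 was found after thinning in 11.4%, 2.69%, 0.588% and 1.91%. Myl4 was found there in 10.7%, 4.48%, 8.24% and 4.31%. These shares include wells with mainly cardiomyocyte markers, which gave 14 of the 33 NF0 wells with Myl7. They are thus not a background free of cardiomyocytes. Median depths of the kept NF0, NF, AF0 and AF wells were 33474, 17156, 38768 and 29057 UMIs, against 15842, 17422 and 17806.5 in the cardiomyocyte-marker wells of the cardiomyocytes library.

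In the fibroblasts library the members were at lower levels, which were highest in wells named NF0. Myh6 gave 473 UMI CPM in NF0, 363 in NF, 15.4 in AF0 and 63.8 in AF wells, and Myl2 gave 696, 463, 24.5 and 86.4. In the same order 30 of 307, 25 of 256, 1 of 171 and 5 of 220 wells held mainly cardiomyocyte markers. The 10 richest wells held 59.2%, 85.6%, 86.3% and 93.7% of the Myh6 UMIs of these names, and 44.1% of those of the library. The 5 empty control wells of each chip held 11 and 10 UMIs of all 6 members together.

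Across 1039 kept AFNCM and NFNCM wells, the members fell into groups by how their levels went together. The Pearson r of log(1 + UMIs per 10000) was 0.74 for Myl2 with Myl3, 0.72 for Myh6 with Myl2, 0.52 for Myh6 with Myh7 and 0.50 for Myl4 with Myl7, but -0.09 for Myl2 with Myl7 and -0.01 for Myl3 with Myl4. In the 843 of these wells with mainly cardiomyocyte markers, Myl2 with Myl7 was at -0.39 and Myl3 with Myl4 at -0.18. Values were lower there for Myl2 with Myl3 (0.58), Myh6 with Myl2 (0.44) and Myh6 with Myh7 (0.40). Myl4 with Myl7 stayed at 0.50. All points come from 1 library and share the depth of their well, so these values are descriptions. Among 7541 genes, those most alike to Myh6 were Tnnt2 (r = 0.84), Tpm1 (0.83) and Actc1 (0.82), and those most alike to Myh7 were Myh6 (0.52), Ttn (0.47) and Tnnt2 (0.47). Myl2 was most like Myl3 (0.74), Tnnc1 (0.72) and Myh6 (0.72), and Myl3 most like Tpm1 (0.74), Myl2 (0.74) and Tnnt2 (0.74). Myl7 went with Sln (0.62), Nppa (0.59) and Gpx3 (0.56), and Myl4 with Sln (0.51), Myl7 (0.50) and Gpx3 (0.48). The 3 genes nearest to each atrial chain thus included no ventricular light chain. In the 843 wells with mainly cardiomyocyte markers, r of Myh6 with Tnnt2 was 0.68. There Ttn took the place of Actc1 for Myh6, and Mb that of Tnnc1 for Myl2.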

How the data were processed

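For bulk RNA-Seq the authors deposited raw counts per gene. Per the study's methods, reads were aligned to mm10 by subread, only unique reads were retained, and these were assigned to RefSeq genes by featureCounts. For single cells, tables deposited by the authors hold UMI counts by gene for every well, and reports name the wells and their alignment. Submitters' processing notes name STAR 2.5.2b, featureCounts and Subread 1.4.6-p1. Library totals were 9278909 and 12088577 (imCM-NF) and 10766124 and 11790263 (imCM-AF) counts.

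Genes with CPM over 1 in at least 2 libraries (14041) were tested by edgeR 4.0.16 with TMM scaling; DESeq2 1.42.0 and limma 3.58.1 were alternatives, as were other scalings and filters, each library left out and a replicate block. The procedure was tested on simulated data. Libraries of a group differed by more than counting noise (chi-square per degree of freedom 8.60 and 8.42). Ratios were compared by exact permutation. Wells needed 500 genes, over 50% alignment and UMI totals no further than 2 SD from their mean. Mitochondrial genes and spike-ins were left out. Multiplets had been avoided by imaging of wells, per the study's methods, and no doublet caller was run. Sequences and lengths are from the GENCODE annotation of GRCm38, coding bases of principal transcripts. Named genes are the members, every called gene of the lists and up to 3 abundant uncalled ones per list (some are not reported here), and the 3 genes most alike to each member. Members and lists were chosen with earlier results of these data known.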

Additional observations from a re-analysis of the deposited data

How the results depend on the processing

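No myosin isoform was called in any alternative tried. The count of called genes was 1564 (864 higher and 700 lower), against 3789 by adjusted p alone, 565 at a log2 fold threshold of 1, and 712 (226 higher and 486 lower) after scaling to 12 cardiomyocyte markers, a scaling chosen after seeing the data that moved the median log2 fold change of all genes to -0.21. Leaving out 1 library gave 879 (without imCM-NF 2) to 1929 calls (without imCM-NF 1), and 988 without imCM-AF 2. The sign of Myl3 reversed without imCM-NF 2 (-0.16) and under marker scaling (-0.14), and that of Myl7 likewise (-0.0056 and -0.083). The cause was not tested. With 1 library left out, log2 fold changes ranged from 0.14 to 0.59 for Myh6, 0.12 to 0.56 for Myh7, 0.03 to 0.43 for Myl2, -0.16 to 0.27 for Myl3, 0.10 to 0.31 for Myl4 and -0.0056 to 0.23 for Myl7. The edgeR test across all genes put Myh7 under an adjusted p of 0.05, though not past the fold threshold, without imCM-NF 1 (adjusted p = 0.0123), without imCM-AF 1 (adjusted p = 0.0147) and without the expression filter (adjusted p = 0.0269), in a range over alternatives of 0.000701 (crossed replicate numbers) to 0.837 (scaling to markers). The bulk log2 difference of Myh6/Myh7 ranged from -0.077 (without imCM-AF 1) to 0.16, that of Myl2/Myl7 from 0.03 to 0.21 and that of Myl3/Myl4 from -0.26 to -0.04. A lone library was assumed to vary like the other group.

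A replicate block on the number in the titles gave 1430 calls and left each ratio difference as it was (0.04, 0.12 and -0.15). With the block the log2 fold changes were 0.36 for Myh6, 0.32 for Myh7, 0.23 for Myl2, 0.05 for Myl3, 0.20 for Myl4 and 0.11 for Myl7, so it changed no call. Deviations of same-numbered libraries correlated at -0.18 over 14041 genes, so the numbers were not taken as pairs. Crossed numbers, tried after seeing this, gave 1668 calls.

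Single-cell ratios moved beyond their counting intervals in 20 of 36 cases. With the gene minimum alone, Myl2/Myl7 was 5.58 in NCM0, 3.65 in NFNCM and 3.20 in AFNCM wells, and Myl3/Myl4 was 11.01, 10.99 and 14.4. Thinned to 5000 UMIs, Myh6/Myh7 was 23.5 in NCM0 and 31.9 in NFNCM wells, Myl2/Myl7 4.97, 3.83 and 3.21, and Myl3/Myl4 9.11 in NCM0 and 12.9 in AFNCM wells. With equal weight per well, Myh6/Myh7 was 26.7 in NFNCM and 27.5 in AFNCM wells, Myl2/Myl7 4.27 and 3.60, and Myl3/Myl4 8.63, 11.6 and 13.9 in NCM0, NFNCM and AFNCM wells. Depth limits the reading of Myl4 and Myh7 in single wells, where many wells held 0 to a few UMIs.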
